A study of Mus musculus with 54 samples.

Results

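The proteasome is the protease that degrades proteins tagged with ubiquitin. Its core is a barrel of alpha subunits (Psma genes), which gate the channel, and beta subunits (Psmb genes), of which Psmb5, Psmb6 and Psmb7 carry the active sites. A regulatory particle of ATPases that unfold the substrate (Psmc genes) and of non-ATPase subunits that bind and remove ubiquitin chains (most Psmd genes) caps the core, and other caps are the activator PA28 (Psme1 and Psme2, or Psme3 alone) and PA200 (Psme4). Interferon-treated and immune cells replace the active beta subunits by Psmb8, Psmb9 and Psmb10, which make the immunoproteasome, and thymic epithelium uses Psmb11. In the testis, meiotic and postmeiotic germ cells are known to carry Psma8 in the place of Psma7, and PA200 is known for the removal of acetylated histones in spermatids.

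The expression of all proteasome subunit genes was followed in mouse testes that lack BORIS, have 1 intact Ctcf allele, or both. CTCF is the zinc finger protein that organizes chromatin loops, and BORIS (gene symbol Ctcfl) is its testis-specific paralogue. The members are the 44 genes, of 23284 in each count table, whose symbol is Psma to Psmf followed by a number. By role they are 7 alpha subunits and the spermatocyte alpha subunit Psma8, 4 beta subunits without an active site, 3 catalytic beta subunits, 3 immunoproteasome subunits, the thymic subunit Psmb11, 6 ATPases, 11 non-ATPases, 3 assembly chaperones of the regulatory particle, 4 activator subunits and the inhibitor Psmf1. The genotypes of C57BL/6 mice aged 3 months were 4 in number. Wild type mice (WT) had both genes intact on each chromosome. CTCF HET mice carried 1 knockout allele of Ctcf (Ctcf+/-) with Boris intact, and BORIS KO mice lacked Boris (Boris-/-) with Ctcf intact. Compound mutants (CM, labelled DKO in the deposit) combined Ctcf+/- with Boris-/-. CTCF HET and CM keep 1 Ctcf allele, because mice without CTCF die as embryos. Whole testis libraries were made from germ cell-enriched suspensions, obtained by collagenase and trypsin digestion, of 3 preparations per genotype that each pooled 4 mice. Round spermatids, the haploid cells that follow meiosis, and spermatocytes, the cells in meiosis, were purified, with purities stated as 93.7 ± 2.3% and 81.5 ± 3.7%. There were 3 libraries per genotype and cell type, except for 2 of WT spermatocytes.

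Counts summed to 10437683-42055813 per whole testis library (rRNA-depleted RNA, Ion Proton), 47740650-98545423 per round spermatid library and 53337530-88946702 per spermatocyte library (both poly(A) RNA, HiSeq2000), and the 44 members took 0.408-0.602% of them. Levels are given as CPM, counts scaled to the library total with TMM factors. In whole testis, Ctcf was at 39.9-47.0 CPM in WT, 22.3-30.2 CPM in CTCF HET, 31.8-38.4 CPM in BORIS KO and 24.0-27.4 CPM in CM. In spermatocytes it was at 33.3-35.2 CPM in WT, 32.3-52.4 CPM in the libraries labelled CTCF HET and 33.0-85.9 CPM in those labelled CM, and in round spermatids at 29.4-48.7 CPM in WT and 39.5-172 CPM in those labelled CM, so that these Ctcf levels go against the labels and the directions drawn from these libraries carry that limit. Ctcfl was at 0.531-0.688 CPM in WT and 0.122-0.201 CPM in CM whole testis, and at 2.84-5.12 CPM in WT and 1.97-2.39 CPM in BORIS KO round spermatids. CM whole testis library 1 stood farthest from its group over the members (SD of its log2 deviations 0.946), followed by library 2 of round spermatids labelled CM (0.739). Psmb5, Psma4, Psmb3, Psmd2, Psme2, Psma5 and Psmd11 have a near-identical copy elsewhere over 50% or more of their transcript, and exons of Psme1, Psmb8, Psmb9, Psmc3, Psma4, Psma5, Psmb7, Psmd1, Psmd3 and Psmd13 overlap a gene on the other strand. How the counting treated strand and shared reads is not given in the sources used here, so counts of these genes are uncertain to that extent.

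WT round spermatids were first compared with WT spermatocytes, to see how the subunit genes change from meiosis to the haploid stage. Most members that changed were lower in round spermatids, among them Psma8 and every structural beta subunit, while the chaperone Psmd10, the alpha subunit Psma6 and the activator PA200 were higher. Of 41 members that passed the filter on low counts, 18 were called lower (43.9%, against 34.2% of all 16052 genes tested) and 8 were called higher (19.5%, against 35.8% of all genes). A call is an adjusted p below 0.05 in edgeR's quasi-likelihood test, adjusted over all genes tested. The median log2 fold change was -0.28 over the members and 0.02 over all genes. Psmb8, Psmb9 and Psmb11 did not pass the filter.

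Psma8, the alpha subunit of meiotic proteasomes, was at 482 and 448 CPM in the WT spermatocyte libraries and at 52.0, 60.2 and 70.0 CPM in the WT round spermatid libraries. The groups lay far apart, and spermatocytes were the higher (log2 fold change -2.91 ± 0.14 (SE), edgeR adjusted p = 1.79e-06). Its counterpart Psma7 was at 2.56 and 3.28 CPM in spermatocytes and at 2.98, 2.18 and 2.43 CPM in round spermatids, levels that overlapped. Per kb of transcript, Psma8 therefore made up 98.7-99.0% of the sum of both in spermatocytes, 90.4-94.0% in round spermatids and 64.7-73.5% in whole testis, where Psma8 was at 32.2, 44.9 and 39.1 CPM and Psma7 at 6.25, 9.13 and 11.5 CPM.

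Psmd10 (gankyrin, an assembly chaperone of the ATPase ring, mm9 chrX:137482968-137491267, minus strand) was nearly absent from WT spermatocytes, with 19 and 13 counts or 0.25 and 0.172 CPM, and reached 28.7, 21.3 and 23.1 CPM in round spermatids (log2 fold change 6.87 ± 0.27 (SE), edgeR adjusted p = 7.59e-07). All round spermatid libraries lay above both spermatocyte libraries. Psma6, an alpha subunit, rose from 60.5 and 61.2 CPM to 206, 184 and 202 CPM (log2 fold change 1.73 ± 0.10 (SE), edgeR adjusted p = 4.03e-06), again with no overlap. Psmc2, an ATPase, was at 288 and 304 CPM in spermatocytes and at 454, 426 and 438 CPM in round spermatids (log2 fold change 0.60 ± 0.08 (SE), edgeR adjusted p = 0.000459).

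The activators moved in both directions. Psme4, which encodes PA200, was at 949.9 and 903 CPM in spermatocytes and at 1448, 1316 and 1327 CPM in round spermatids (log2 fold change 0.59 ± 0.08 (SE), edgeR adjusted p = 0.000562). All round spermatid libraries were the higher, and the call was lost with an offset for the GC content of transcripts. Psme1, a subunit of PA28 that interferon induces, was low in both stages at 0.342 and 0.278 CPM and 1.29, 1.73 and 1.17 CPM (log2 fold change 2.19 ± 0.37 (SE), edgeR adjusted p = 0.00123), whereas Psme3, the nuclear form of PA28, fell from 105 and 103 CPM to 55.8, 66.1 and 56.5 CPM (log2 fold change -0.78 ± 0.11 (SE), edgeR adjusted p = 0.000587). Psmf1, the inhibitor PI31, was at 49.6 and 57.0 CPM in spermatocytes and 92.0, 84.2 and 80.9 CPM in round spermatids (log2 fold change 0.71 ± 0.11 (SE), edgeR adjusted p = 0.000955). Groups of each of these genes did not overlap. Cd74 and C1qa, picked from a longer list of macrophage markers, were at 0 in all WT libraries of both stages. Levels of the other markers of that list in these libraries are not reported here.

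Members lower in round spermatids came from every part of the complex. Psmd14, the deubiquitinase of the regulatory particle, was at 99.2 and 91.9 CPM in spermatocytes and at 37.4, 37.3 and 39.3 CPM in round spermatids (log2 fold change -1.30 ± 0.10 (SE), edgeR adjusted p = 1.88e-05). Psmd1, its largest scaffold subunit, was at 194 and 197 CPM and 92.5, 85.3 and 84.4 CPM (log2 fold change -1.14 ± 0.09 (SE), edgeR adjusted p = 2.08e-05), and the alpha subunit Psma2 at 29.9 and 32.0 CPM and 11.8, 10.8 and 10.2 CPM (log2 fold change -1.48 ± 0.13 (SE), edgeR adjusted p = 3.43e-05). Spermatocytes were the higher in every library for all 3 genes. The ATPase Psmc4 (-1.22 ± 0.12) and the beta subunit Psmb3 (-1.44 ± 0.20) fell as well, with edgeR adjusted p of 7.85e-05 and 0.000542. All 4 beta subunits without an active site were called lower, by 0.74 (Psmb2) to 1.44 (Psmb3) on the log2 scale. Of the catalytic subunits, Psmb5 was called lower (-1.16 ± 0.27, edgeR adjusted p = 0.00687), and Psmb6 (-0.13 ± 0.12) and Psmb7 (0.02 ± 0.09) were not. With the GC offset, the split was 6 higher and 23 lower. Spermatocyte markers were lower in round spermatids for 4 of 6 genes and round spermatid markers higher for 6 of 6, as the labels of the cells say.

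**Figure D1:**
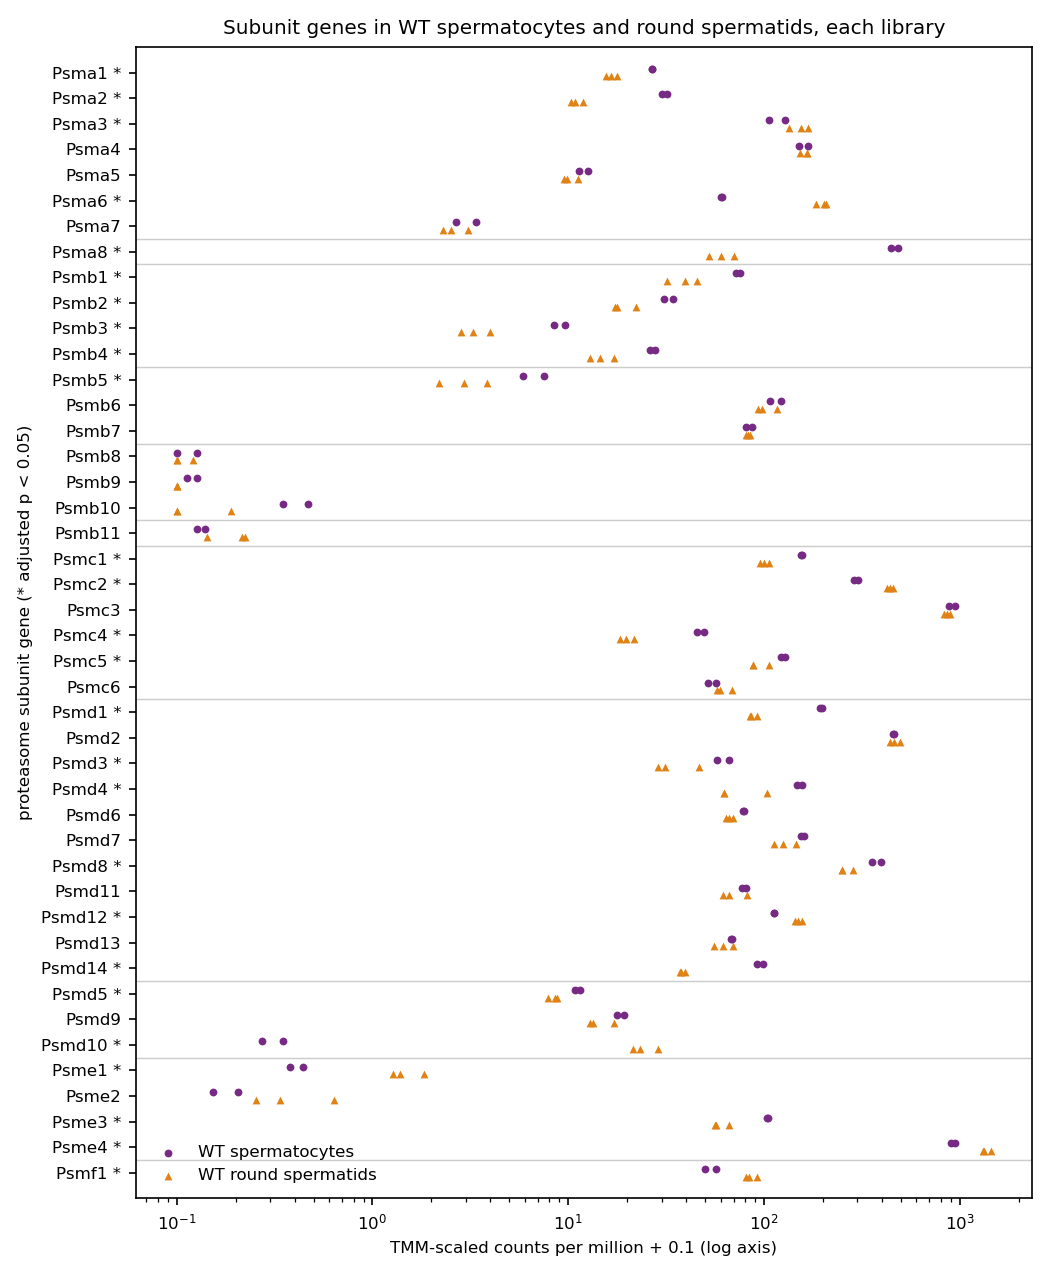
Each point is 1 WT library, with TMM-scaled CPM plus 0.1 on a log axis and the 44 subunit genes grouped by role, and asterisks mark genes called in the comparison. Psma8 lies far to the left in round spermatids (triangles) and Psmd10 far to the right, while Psmb8, Psmb9 and Psmb11 lie near the lower end in both cell types.

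In whole testis, CM was compared with WT to ask what the combined loss of BORIS and of 1 Ctcf allele does. The interferon-inducible members Psme1, Psme2, Psmb8 and Psmb10 were higher in CM, and the inhibitor Psmf1 and the activators Psme4 and Psme3 were lower. No alpha, ATPase, non-ATPase or constitutive beta subunit was called in this fit, which has no block. With the library number as a block, Psma7, Psmb3, Psmb5, Psmc2 and Psmd12 were called as well, so that contrast depends on the fit. Of 42 members tested, 4 were called higher (9.52%, against 16.4% of all genes) and 3 lower (7.14%, against 8.8% of all genes), with a median log2 fold change of 0.00 over the members and 0.00 over all 16378 genes. These shares of members were no larger than those of all genes. Psmb9 and Psmb11 did not pass the filter on low counts. Promoters of the 4 members called higher are shown first, since PA28 and immunoproteasome genes are known targets of interferon, from 250 bases before the start to 50 after it, 5′ to 3′ on the strand of the gene (RefSeq, GRCm38.p6). Psme1 lies at chr14:55578244-55578543 on the plus strand, Psme2 at chr14:55591052-55591351 on the minus strand, Psmb8 at chr17:34197945-34198244 on the plus strand and Psmb10 at chr8:105938343-105938642 on the minus strand. Capitals mark GAAANNGAA (an interferon-stimulated response element, read on the opposite strand in Psme1) and TTCNNNGAA (a gamma-activated site, in Psmb8), and Psme2 and Psmb10 hold neither. At Psmb10, peaks of H3K4me3, a mark of active promoters, had their middles 1306 (WT) and 937 (CM) bases into the gene from its mm9 start. The window printed for Psmb10 may therefore not be the promoter in use.
Psme1: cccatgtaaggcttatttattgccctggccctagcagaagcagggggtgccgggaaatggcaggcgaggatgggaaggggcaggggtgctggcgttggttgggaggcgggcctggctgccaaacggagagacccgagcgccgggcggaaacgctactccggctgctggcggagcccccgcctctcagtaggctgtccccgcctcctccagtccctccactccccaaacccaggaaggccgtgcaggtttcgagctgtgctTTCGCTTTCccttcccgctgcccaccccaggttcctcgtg
Psme2: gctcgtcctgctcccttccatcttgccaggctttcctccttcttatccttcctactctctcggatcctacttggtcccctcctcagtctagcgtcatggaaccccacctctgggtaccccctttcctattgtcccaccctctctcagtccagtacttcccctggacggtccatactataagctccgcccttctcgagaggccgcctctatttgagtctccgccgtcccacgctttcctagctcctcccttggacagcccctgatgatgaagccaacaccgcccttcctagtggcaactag
Psmb8: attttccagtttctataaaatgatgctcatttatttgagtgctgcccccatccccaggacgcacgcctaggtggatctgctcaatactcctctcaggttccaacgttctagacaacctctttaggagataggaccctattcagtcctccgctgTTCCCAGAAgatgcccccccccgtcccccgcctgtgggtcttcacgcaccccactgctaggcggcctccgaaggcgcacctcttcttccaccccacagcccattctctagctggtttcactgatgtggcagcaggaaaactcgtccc
Psmb10: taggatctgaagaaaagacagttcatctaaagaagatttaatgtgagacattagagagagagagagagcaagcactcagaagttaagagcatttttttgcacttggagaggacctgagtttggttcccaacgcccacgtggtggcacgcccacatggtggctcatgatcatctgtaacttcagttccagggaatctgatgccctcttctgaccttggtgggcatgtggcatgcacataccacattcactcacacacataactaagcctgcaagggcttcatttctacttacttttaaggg

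Psme1 (mm9 chr14:56196960-56200366, plus strand) was at 4.75, 3.49 and 2.15 CPM in WT and at 32.3, 11.2 and 30.2 CPM in CM (log2 fold change 2.77 ± 0.45 (SE), edgeR adjusted p = 0.0154). All CM libraries lay above all WT libraries, with CM library 2 the lowest of the 3. Psme2, which forms PA28 together with Psme1 (mm9 chr14:56206278-56209950, minus strand), was at 8.40, 3.95 and 2.67 CPM in WT and at 22.7, 10.1 and 15.02 CPM in CM (log2 fold change 1.63 ± 0.44 (SE), edgeR adjusted p = 0.0307). Here too the groups did not overlap, and library 1 was the highest of each group. Psmb10, which replaces the catalytic subunit Psmb7 in the immunoproteasome (mm9 chr8:108459628-108462292, minus strand), was at 2.57, 2.20 and 2.15 CPM in WT and at 6.17, 6.91 and 6.77 CPM in CM (log2 fold change 1.48 ± 0.28 (SE), edgeR adjusted p = 0.0159). Its spread within either group was small beside the difference. Psmb8, which replaces Psmb5 (mm9 chr17:34334666-34338399, plus strand), was lower still at 0.914, 0.388 and 0.688 CPM in WT and 3.29, 1.83 and 2.88 CPM in CM (log2 fold change 1.94 ± 0.41 (SE), edgeR adjusted p = 0.0179), with counts of 31, 6 and 8 in WT and 131, 30 and 37 in CM. It passed the filter on low counts only through the CM libraries, where it is high. The direction of its call was therefore not free. Psmb9, which replaces Psmb6 (mm9 chr17:34318932-34324697, minus strand), held 10, 6 and 0 counts in WT and 95, 9 and 21 counts in CM, and was not tested. Summed per kb, Psmb8, Psmb9 and Psmb10 made up 0.823-0.893% of the sum with Psmb5, Psmb6 and Psmb7 in WT and 2.23-3.84% in CM, so the constitutive subunits prevailed in all libraries.

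Genes of other cells moved with these members. Of 11 macrophage markers 9 were called higher in CM and none lower, with a summed level of 506-702 CPM in WT and 624-987 CPM in CM; Cd74 was at 3.35-7.90 CPM in WT and 29.7-76.9 CPM in CM, and C1qa at 5.50-8.49 and 15.9-36.9 CPM. Leydig cell markers were higher for 4 of 6 genes (344-582 CPM in WT, 1742-3399.7 CPM in CM), Sertoli cell markers for 3 of 6 (271-464 and 673-1486 CPM) and spermatogonia markers for 2 of 6 (50.9-70.0 and 116-415 CPM), and round spermatid markers were lower for 3 of 6 (682-1199.8 and 273-601 CPM). Their part in the members' changes was not tested. In libraries of a mixed tissue, fewer cells of a type and less RNA per cell cannot be told apart. In purified WT round spermatids and spermatocytes, Psme1 reached at most 1.73 CPM, Psme2 0.535 CPM, Psmb10 0.37 CPM and Psmb8 0.0265 CPM. These libraries differ from those of whole testis in RNA selection and sequencer and were scaled apart from them. The levels are therefore not ranked against whole testis.

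The members that fell in CM are abundant ones. Psmf1 (mm9 chr2:151541548-151569922, minus strand) was at 502, 621 and 654 CPM in WT and at 184, 277 and 264 CPM in CM (log2 fold change -1.33 ± 0.27 (SE), edgeR adjusted p = 0.017). All CM libraries were below all WT libraries. Psme4 (mm9 chr11:30671726-30780361, plus strand) was at 1112, 1038 and 910.3 CPM in WT and 513, 651 and 510.3 CPM in CM (log2 fold change -0.90 ± 0.24 (SE), edgeR adjusted p = 0.0278), and Psme3 (mm9 chr11:101177527-101184851, plus strand) at 180.1, 143 and 123 CPM and 88.4, 92.1 and 91.0 CPM (log2 fold change -0.74 ± 0.22 (SE), edgeR adjusted p = 0.0373). Neither gene's groups overlapped. Psme4 made up 68.0-73.3% of the per-kb sum of the 4 activator subunits in WT and 47.9-64.5% in CM. Psma7 was at 9.16, 22.5 and 44.9 CPM in CM against 6.25, 9.13 and 11.5 CPM in WT, with overlapping groups (log2 fold change 1.48 ± 0.54 (SE), edgeR adjusted p = 0.0741), and Psma8 at 23.1, 51.3 and 45.9 CPM in CM (log2 fold change 0.02 ± 0.34 (SE), edgeR adjusted p = 0.974). The share of Psma8 in the sum of both per kb was 35.6-57.6% in CM.

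The 7 calls depended on which libraries were included. None was kept without WT library 2, WT library 3 or CM library 3, and 12 members were called without CM library 1. Libraries of whole testis with the same number deviated together, and with the number as a replicate block 12 members were called (7 higher and 5 lower), the 7 above and Psma7, Psmb3, Psmb5, Psmc2 and Psmd12. Under RLE scaling or the GC offset 8 were called, 4 higher and 4 lower, of which Psmd12 was the addition. Shares of all genes called under these settings are not reported here, so whether the members exceed them is not shown.

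The single mutants in whole testis gave no called member. In CTCF HET against WT, 0 of 43 members tested were called by edgeR (0.00621% of all genes), and 1 had an unadjusted p below 0.05. That member was Psmb11, the thymic subunit, at 0.383, 0.518 and 0.172 CPM in WT and 0.864, 0.912 and 0.889 CPM in CTCF HET (log2 fold change 1.27 ± 0.43 (SE), edgeR adjusted p = 1). Psmb11 passed the filter only through the CTCF HET libraries, where it is higher. DESeq2 called 0 as well. In BORIS KO against WT, 0 of 42 were called by edgeR (0.0551% of all genes), 5 had an unadjusted p below 0.05, and DESeq2 called 1. Shares of all genes at that unadjusted p, or called by DESeq2, are not reported here. Psme1 was at 7.76, 7.31 and 6.54 CPM in BORIS KO, above all WT libraries and below all CM libraries (log2 fold change 1.04 ± 0.26 (SE), edgeR adjusted p = 0.203), and Psme4 at 757, 671 and 799 CPM, below all WT libraries (log2 fold change -0.46 ± 0.15 (SE), edgeR adjusted p = 0.219). With the replicate block, 3 members were called, Psme1 higher and Psme4 and Psmd11 lower, and 7 with the block and the GC offset (1 higher and 6 lower). The summed share of immunoproteasome subunits per kb was 0.580-0.812% in CTCF HET and 1.03-2.00% in BORIS KO.

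CM was also compared with each single mutant. In CM against CTCF HET, 4 of 43 were called higher (9.3%, against 10.6% of all genes) and 1 lower (2.33%, against 4.88%). These were Psme1 (log2 fold change 2.35 ± 0.43 (SE), edgeR adjusted p = 0.0216), Psmb10 (log2 fold change 1.75 ± 0.33 (SE), edgeR adjusted p = 0.0218), Psmb8 (log2 fold change 2.30 ± 0.48 (SE), edgeR adjusted p = 0.0244), Psme2 (log2 fold change 1.77 ± 0.50 (SE), edgeR adjusted p = 0.0443) and, lower, Psmf1 (log2 fold change -1.23 ± 0.28 (SE), edgeR adjusted p = 0.0259). CTCF HET libraries were at 5.80, 3.34 and 4.74 CPM for Psme1, 1.56, 2.55 and 1.58 CPM for Psmb10 and 482, 574 and 600.2 CPM for Psmf1, with no overlap with CM. Psmb8, at 0.304-0.889 CPM in CTCF HET, again passed the filter only through the CM libraries, so the direction of its call was not free. Of the marker lists, 7 of 11 macrophage, 4 of 6 Leydig and 1 of 6 Sertoli genes were higher in this comparison too. None of the 5 calls was kept without CTCF HET library 2, CTCF HET library 3 or CM library 3, 3 were kept without CTCF HET library 1, 7 members were called without CM library 1, and 10 (6 higher and 4 lower) with the replicate block.

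In CM against BORIS KO, 0 of 44 members were called by edgeR (0.006% of all genes), 10 had an unadjusted p below 0.05, and DESeq2 called 4. Shares of all genes at that unadjusted p or under DESeq2 are not reported here, nor is the former for the interaction below. These counts therefore do not set the members against other genes. Psme1 (log2 fold change 1.73 ± 0.38 (SE), edgeR adjusted p = 0.144), Psmf1 (log2 fold change -1.02 ± 0.28 (SE), edgeR adjusted p = 0.144) and Psmb8 (log2 fold change 1.36 ± 0.38 (SE), edgeR adjusted p = 0.145) led by p. With the replicate block 5 members were called (4 higher and 1 lower), namely Psme1, Psme2, Psmb3, Psmb5 and Psmf1, and 2 without CM library 2, Psmb8 and Psme1. Whether the CM change exceeds the sum of the single mutants on the log2 scale was tested as an interaction of Ctcf and Boris. No member of 44 was called by edgeR (0% of all genes), and 6 had an unadjusted p below 0.05, led by Psmb10 (log2 fold change 1.23 ± 0.38 (SE), edgeR adjusted p = 0.473) and Psmb8 (log2 fold change 1.78 ± 0.63 (SE), edgeR adjusted p = 0.473). DESeq2 called 0 as well. The comparisons of CM with each genotype share the CM libraries.

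**Figure D2:**
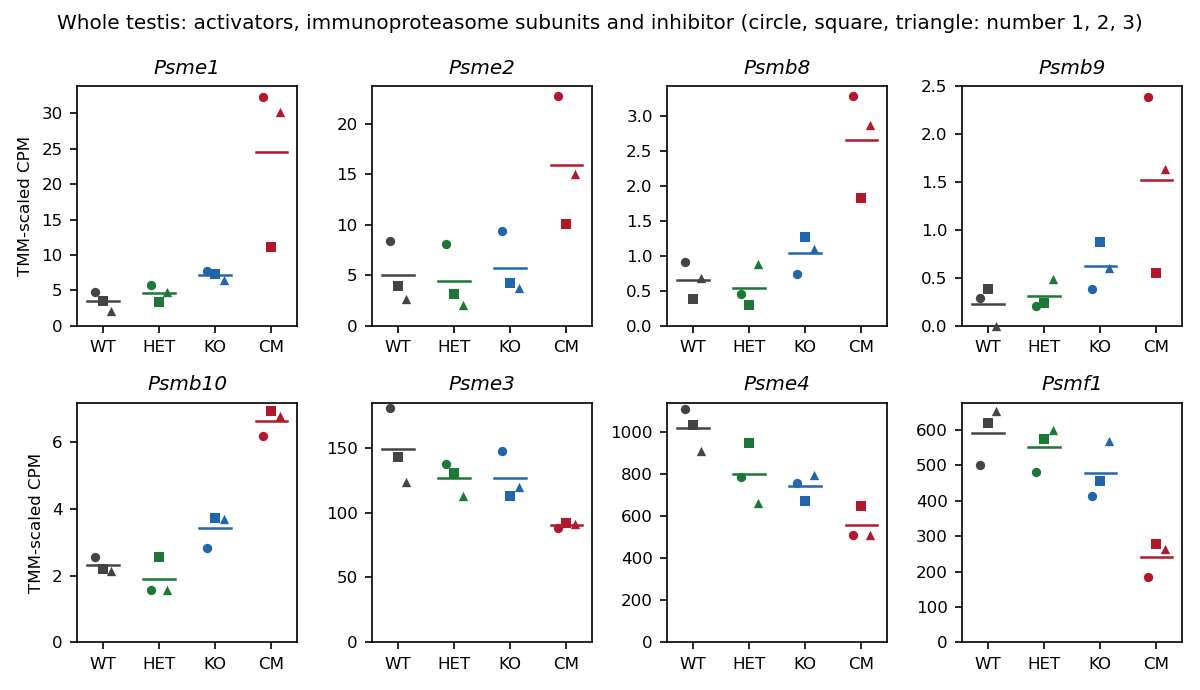
Each panel shows 1 gene in whole testis, with TMM-scaled CPM from 0 on the vertical axis, points for the libraries (circle, square and triangle for numbers 1, 2 and 3) and lines for the group means. For Psme1, Psme2, Psmb8 and Psmb10 all 3 CM points lie above the WT points, and for Psmf1, Psme3 and Psme4 all 3 lie below them.

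In purified round spermatids, BORIS KO was compared with WT to ask what loss of BORIS changes within 1 cell type. Most members changed, in both directions, and the beta subunits Psmb2 to Psmb6, Psmd3, Psmd9 and Psmf1 were higher while Psma3, Psma4, Psmc6, Psme4 and Psma8 were lower. Of 41 members tested, 17 were called higher (41.5%, against 26.8% of all genes) and 14 lower (34.1%, against 29% of all genes), and 5 passed an adjusted p below 0.001 with a fold change over 2. Psmb5, the subunit with chymotrypsin-like activity, was at 3.77, 2.08 and 2.82 CPM in WT and 10.1, 9.99 and 8.92 CPM in BORIS KO (log2 fold change 1.77 ± 0.22 (SE), edgeR adjusted p = 0.000175). All BORIS KO libraries were the higher. Psmd9, an assembly chaperone, was at 17.0, 13.3 and 12.8 CPM in WT and 39.0, 35.7 and 31.3 CPM in BORIS KO (log2 fold change 1.34 ± 0.15 (SE), edgeR adjusted p = 0.000116), and Psmd3, a scaffold subunit of the lid, at 46.7, 31.2 and 28.6 CPM and 92.9, 79.7 and 83.5 CPM (log2 fold change 1.30 ± 0.18 (SE), edgeR adjusted p = 0.000295). Both rose with no overlap between the groups. Psmb6 (0.75 ± 0.10), Psmb4 (0.99 ± 0.15) and Psmf1 (0.58 ± 0.09) rose by less, with edgeR adjusted p of 0.000329, 0.000493 and 0.000539. Psma7 was at 4.37, 4.17 and 5.94 CPM (log2 fold change 0.96 ± 0.20 (SE), edgeR adjusted p = 0.00336). The beta subunit Psmb1 was called lower (log2 fold change -0.49 ± 0.14 (SE), edgeR adjusted p = 0.0135), and Psmb7 was not called (log2 fold change 0.15 ± 0.09 (SE), edgeR adjusted p = 0.174). Psmb10, counted among the 17, was called higher on 8, 0 and 0 counts in WT and 30, 41 and 36 counts in BORIS KO. It passed the filter only through the BORIS KO libraries, where it is high, so the direction of its call was fixed by the filter.

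Of the members that fell, Psma3, an alpha subunit, was at 134, 154 and 168 CPM in WT and 44.0, 42.7 and 43.7 CPM in BORIS KO round spermatids (log2 fold change -1.77 ± 0.11 (SE), edgeR adjusted p = 6.07e-06). Psma4, another alpha subunit, was at 166, 152 and 166 CPM and 69.6, 62.8 and 73.1 CPM (log2 fold change -1.20 ± 0.09 (SE), edgeR adjusted p = 1.57e-05), and the ATPase Psmc6 at 57.2, 59.2 and 68.6 CPM and 30.3, 29.9 and 33.3 CPM (log2 fold change -0.95 ± 0.11 (SE), edgeR adjusted p = 0.000116). All WT libraries were the higher for all 3 genes. Psme4 was at 829, 896 and 814 CPM against 1448, 1316 and 1327 CPM in WT (log2 fold change -0.65 ± 0.08 (SE), edgeR adjusted p = 0.000167), Psma8 at 32.8, 33.9 and 27.7 CPM (log2 fold change -0.91 ± 0.15 (SE), edgeR adjusted p = 0.000719) and Psmd14 at 23.1, 21.3 and 23.2 CPM (log2 fold change -0.72 ± 0.10 (SE), edgeR adjusted p = 0.000343). The share of Psma8 in the per-kb sum with Psma7 was 71.6-81.4%, below all WT libraries.

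In BORIS KO spermatocytes, Psmd3, Psmd9 and the catalytic subunits were higher than in WT, and Psme4, Psma3, Psma4 and Psma8 were lower. Of 41 members, 18 were called higher (43.9%, against 29.1% of all genes) and 9 lower (22%, against 28.1%), and 1 passed the stricter rule of adjusted p below 0.001 and a fold change over 2. The higher members by smallest p were Psmd3 (0.72 ± 0.07), Psmd9 (0.83 ± 0.08), Psmb5 (1.08 ± 0.11), Psmb4 (0.71 ± 0.08), Psmb6 (0.57 ± 0.07) and Psma7 (0.93 ± 0.13), as log2 fold changes ± SE with edgeR adjusted p of 6.14e-06 to 6.42e-05. All 3 catalytic subunits were among those called higher. The lower members were Psme4 (-0.62 ± 0.07), Psma3 (-0.86 ± 0.09), Psma4 (-0.59 ± 0.07), Psma8 (-0.54 ± 0.07), Psmd14 (-0.42 ± 0.06) and Psmb1 (-0.31 ± 0.06), with edgeR adjusted p of 1.15e-05 to 0.000853. For example, Psmb5 was at 5.77 and 7.44 CPM in WT and 13.8, 14.2 and 13.97 CPM in BORIS KO spermatocytes, and Psma8 at 482 and 448 CPM and 334, 327 and 303 CPM. Neither gene's groups overlapped. Psma8 made up 96.6-97.1% of the per-kb sum with Psma7. In 1 fit of all groups of a cell type, 9 members were called in BORIS KO spermatocytes, without Psmb5, Psma7 and Psmb1 among others, and 18 in round spermatids, without Psme4, Psma7 and Psmb1 among others.

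The GC content of transcripts moved with these changes. GC content can affect how efficiently fragments are amplified and sequenced, and whether it did so here was not tested. The GC offset cannot tell such an effect from expression that follows GC content. Across 41 members in round spermatids, log2 fold change and GC content had a Spearman correlation of 0.79, and across all genes of 0.72; in spermatocytes the values were 0.69 and 0.64. The median GC content was 53.5% for members called higher and 45.8% for those called lower in round spermatids, and 53.1% and 43.9% in spermatocytes. With a GC offset, 16 members were called higher and 8 lower in round spermatids, and 19 and 6 in spermatocytes. Psmb6, Psme4, Psma8 and Psmd14 were no longer called in round spermatids, nor Psma8 and Psmd14 in spermatocytes, and Psmc6 turned to a higher level in round spermatids (log2 fold change 0.37, edgeR adjusted p = 0.018). Spermatocyte markers fell as well, for 5 of 6 genes in round spermatids (1969-2481 CPM in WT, 1063-1079.9 CPM in BORIS KO) and for 5 of 6 in spermatocytes (5736-6660.1 and 4286-4399.6 CPM). Beyond the GC offset, their part in the members' changes was not tested.

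**Figure D3:**
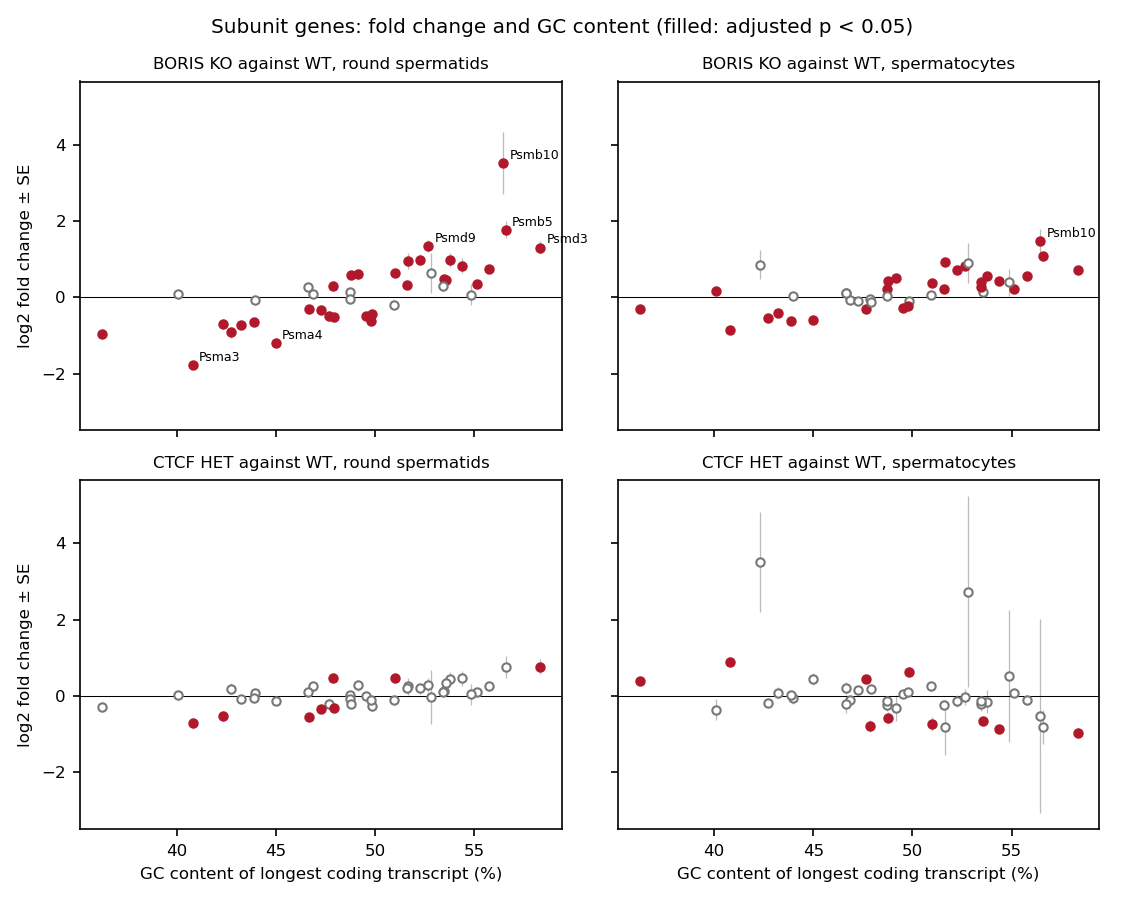
Each panel plots the log2 fold change (± SE) of the subunit genes in 1 comparison with WT against the GC content of the longest coding transcript in percent, with filled points for called members. In both BORIS KO panels the fold change rises with GC content, as it does for CTCF HET round spermatids, and in spermatocytes labelled CTCF HET it falls.

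The comparison of CTCF HET with WT in purified cells asked what the loss of 1 Ctcf allele changes. In round spermatids 3 of 40 members were called higher (7.5%, against 9.51% of all genes) and 5 lower (12.5%, against 12.8%), shares near those of all genes. Higher were Psmd3 (log2 fold change 0.77 ± 0.20 (SE), edgeR adjusted p = 0.026), Psmd11, a lid subunit (log2 fold change 0.47 ± 0.12 (SE), edgeR adjusted p = 0.0264), and Psmb2 (log2 fold change 0.47 ± 0.14 (SE), edgeR adjusted p = 0.0429). Lower were Psma6 (log2 fold change -0.54 ± 0.10 (SE), edgeR adjusted p = 0.00754), Psma3 (log2 fold change -0.71 ± 0.14 (SE), edgeR adjusted p = 0.0101), Psmd10 (log2 fold change -0.52 ± 0.14 (SE), edgeR adjusted p = 0.0285), Psmd6 (log2 fold change -0.34 ± 0.10 (SE), edgeR adjusted p = 0.0364) and Psmd12 (log2 fold change -0.32 ± 0.09 (SE), edgeR adjusted p = 0.0413). Psma6 was at 132, 133 and 138 CPM in CTCF HET, below all WT libraries at 206, 184 and 202 CPM, and Psma3 at 98.8, 75.9 and 100.4 CPM, also below all of WT. With the GC offset the split was 6 higher and 2 lower. The count was 1 without WT library 3 and 15 without WT library 1, and all 8 calls were lost in 1 fit of all groups of round spermatids.

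In the spermatocyte libraries labelled CTCF HET, whose Ctcf level was not reduced, 4 of 41 members were called higher (9.76%, against 6.77% of all genes) and 6 lower (14.6%, against 8.76%). Psma3 was at 128 and 106 CPM in WT and 234, 204 and 217 CPM in the libraries labelled CTCF HET (log2 fold change 0.90 ± 0.11 (SE), edgeR adjusted p = 0.0062), and Psmd7, a lid subunit, at 161 and 155 CPM and 285, 204 and 242 CPM (log2 fold change 0.63 ± 0.14 (SE), edgeR adjusted p = 0.025). These 2 genes were higher in every library. Psmb1 (0.46 ± 0.10) and Psmc6 (0.40 ± 0.11) were called higher with edgeR adjusted p of 0.0221 and 0.0494. Lower were Psmd4, a ubiquitin receptor (147 and 157 CPM in WT and 82.2, 79.0 and 90.5 CPM, log2 fold change -0.85 ± 0.10 (SE), edgeR adjusted p = 0.00521), Psmd3 (log2 fold change -0.96 ± 0.13 (SE), edgeR adjusted p = 0.00659), Psmd8 (log2 fold change -0.66 ± 0.09 (SE), edgeR adjusted p = 0.00722), Psmd11 (log2 fold change -0.78 ± 0.15 (SE), edgeR adjusted p = 0.0146), Psmf1 (log2 fold change -0.57 ± 0.14 (SE), edgeR adjusted p = 0.0362) and Psmb2 (log2 fold change -0.73 ± 0.18 (SE), edgeR adjusted p = 0.0384). The split was 4 and 4 under RLE scaling and 4 and 2 with the GC offset, under which Psmc6 had a log2 fold change of -0.067. No member was called without library 2 of the CTCF HET label. The sum of 6 spermatocyte markers was 7286-7544 CPM against 5736-6660.1 CPM in WT, and these libraries detected 12018-13406 genes against 17631-17683 in WT.

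Purified cells labelled CM gave no called member. In round spermatids 0 of 40 were called by edgeR (0.00654% of all genes), with 8 at an unadjusted p below 0.05 and 4 called by DESeq2. Shares of all genes for the unadjusted p and for DESeq2 are not reported here. Psma6 was at 141, 106 and 103 CPM, below all WT libraries (log2 fold change -0.68 ± 0.17 (SE), edgeR adjusted p = 0.152), and Psmf1 at 61.7, 35.9 and 50.7 CPM, also below them (log2 fold change -0.72 ± 0.20 (SE), edgeR adjusted p = 0.169). Psma7 at 3.39, 16.1 and 4.31 CPM and Psme1 at 0.988, 16.3 and 2.53 CPM were raised in library 2 by far more than in the others. In that library the sum of 6 spermatogonia markers was 353 CPM. The sum was 36.3 and 62.5 CPM in libraries 1 and 3 and 23.2-29.8 CPM in WT. Cd74 and C1qa were at 0 in all 3 libraries labelled CM, and levels of the other macrophage markers in them are not reported here. No member was called without library 2, and 3 were called without library 1.

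In spermatocytes labelled CM 0 of 41 members were called by edgeR (0.604% of all genes), with 13 at an unadjusted p below 0.05 and 7 called by DESeq2. Here too, shares of all genes for the unadjusted p and for DESeq2 are not reported. Psmd10 was at 1.11, 1.64 and 3.62 CPM against 0.25 and 0.172 CPM in WT (log2 fold change 3.37 ± 0.68 (SE), edgeR adjusted p = 0.064). All CM-labelled libraries were the higher. Psmd8 (log2 fold change -0.71 ± 0.15 (SE), edgeR adjusted p = 0.0647) and Psmc3 (log2 fold change -0.40 ± 0.09 (SE), edgeR adjusted p = 0.0663) led the members that were lower by p. The count rose to 13 without library 1 of the CM label.

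Whether a genotype's change differed between round spermatids and spermatocytes was tested directly. The CM change was lower in round spermatids for 2 of 41 members (4.88%, against 3.43% of all genes) and higher for 0 (0.0761% of all genes). These were Psmd10 (log2 fold change -3.56 ± 0.62 (SE), edgeR adjusted p = 0.0184) and Psma6 (log2 fold change -1.07 ± 0.24 (SE), edgeR adjusted p = 0.0309), and the call of Psma6 was lost with the GC offset. The count was 0 to 2 when 1 library was left out. The BORIS KO change was lower in round spermatids for 8 members (19.5%, against 10.4% of all genes) and higher for 0 (3% of all genes), led by Psma3 (log2 fold change -0.98 ± 0.15 (SE), edgeR adjusted p = 0.00393), Psma4 (log2 fold change -0.68 ± 0.12 (SE), edgeR adjusted p = 0.00649) and Psmc6 (log2 fold change -0.71 ± 0.14 (SE), edgeR adjusted p = 0.00815). With the GC offset 3 were called, and 0 without WT spermatocyte library 2 and 21 without WT round spermatid library 1.

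For the CTCF HET label, the change was higher in round spermatids for 9 of 41 members (22%, against 23% of all genes) and lower for 7 (17.1%, against 10.6%). The median of these differences was 0.38 over the members and 0.33 over all genes, so directions are relative to that shift, and the split was 5 and 11 under RLE scaling and 2 and 13 with the GC offset. Psma3 (log2 fold change -1.51 ± 0.20 (SE), edgeR adjusted p = 0.00124) and Psma6 (log2 fold change -0.64 ± 0.16 (SE), edgeR adjusted p = 0.0119) fell below it, and Psmd3 (log2 fold change 1.83 ± 0.28 (SE), edgeR adjusted p = 0.0017), Psmd11 (log2 fold change 1.36 ± 0.20 (SE), edgeR adjusted p = 0.00158) and Psmd8 (log2 fold change 1.10 ± 0.14 (SE), edgeR adjusted p = 0.00117) lay above it. Psmd3 and Psmd8 lost their calls with the GC offset. Psmd10 was at 2.91, 3.99 and 0.262 CPM in spermatocytes labelled CTCF HET and 16.3, 17.4 and 16.6 CPM in round spermatids. It stood above both WT libraries in all 3 spermatocyte libraries, of which library 3 lay closest to WT, and below all WT libraries in round spermatids (log2 fold change -3.92 ± 1.03 (SE), edgeR adjusted p = 0.0153). Comparisons with WT share the WT libraries across genotypes.

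**Figure D4:**
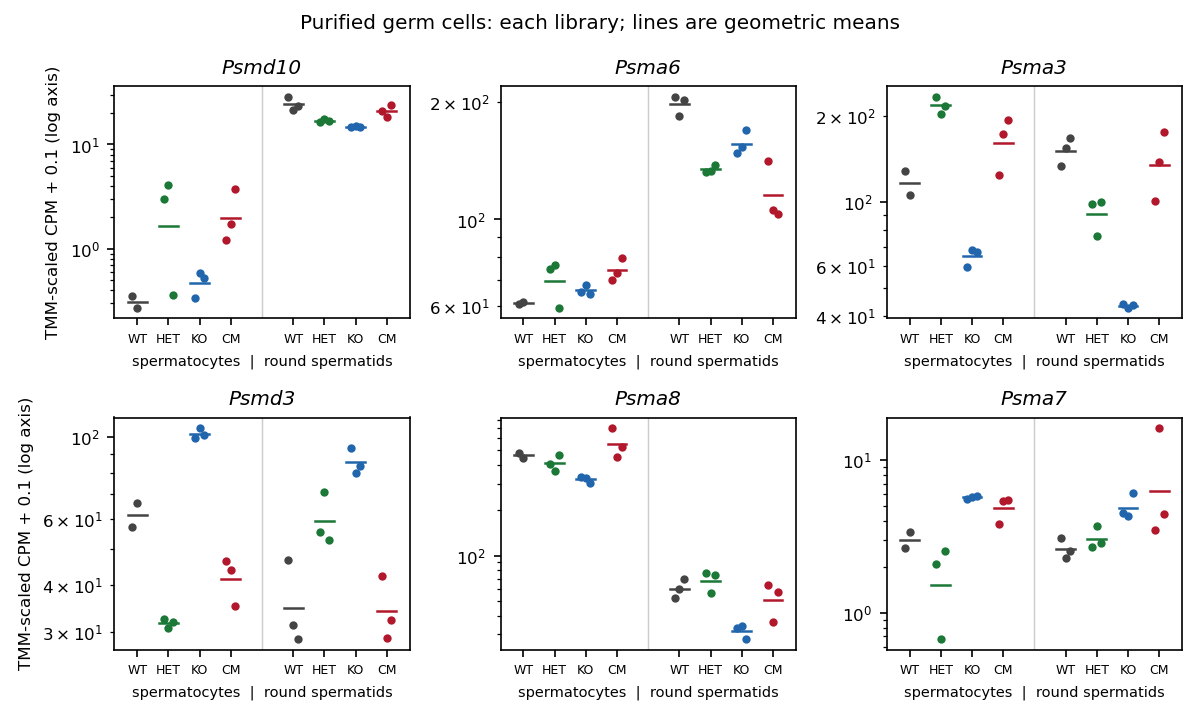
Each panel shows 1 subunit gene in spermatocytes (left) and round spermatids (right) of the 4 labelled genotypes, with TMM-scaled CPM plus 0.1 on a log axis, points for libraries and lines for geometric means. Psmd10 is near the lower end in WT and BORIS KO spermatocytes and higher in those labelled CM. It is also higher in those labelled CTCF HET, except in library 3 (0.262 CPM), which lies within the BORIS KO range. Psma6 is highest in WT round spermatids.

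Chromatin data were used to ask where CTCF and BORIS peaks were listed near the starts of subunit genes. In WT germ cells, CTCF peaks stood within 1 kb of a start at 14 of 44 members (31.8%, against 26.1% of 20251 coding genes). In CM cells they stood at 5 (11.4%, against 8.32%), and BORIS peaks in WT at 4 (9.09%, against 13.7%). The 14 members were Psma1, Psma3, Psma6, Psma7, Psmb5, Psmc4, Psmc6, Psmd1, Psmd2, Psmd3, Psmd6, Psmd7, Psmd11 and Psmd12, of which Psmb5, Psmc4, Psmc6, Psmd1 and Psmd6 were also listed in CM (35.7%, against 30.7% of all genes with a WT peak). Psmc4, Psmd1, Psmd6 and Psmd7 also held a BORIS peak (28.6%, against 40.7%). None of the 7 members called in CM whole testis without the replicate block was among the 14. Of the members that the block added, Psma7, Psmb5 and Psmd12 were among the 14, and Psmb3 and Psmc2 were not. The share over all genes called in CM is not reported here. Within 2 kb, 16 members had a CTCF peak in WT (36.4%, against 30.0%), and the additions were Psmb10 and Psme1, both of which are among those 7. With peaks of the upper 50% of heights only, 4 members had a CTCF peak in WT (9.09%, against 11.5% of coding genes) and 3 in CM (6.82%, against 4.72%). The deposit labels 2 libraries for each of these groups but gives 1 list per group, so the lists carry no replicate error and no test was made between them.

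Windows of 60 bases at the summits of the members' tallest CTCF peaks are printed here for the letters at the centre (mm9, 5′ to 3′ on the strand of the gene). Capitals mark AGNNGGC or AGGGGNC on either strand, which are parts of the CTCF core motif. Psmd6 had the tallest peak with a height of 3833 (chr14:14953500-14953559, minus strand), 32 bases before the start, and Psmc6 came next with 1811 (chr14:45949283-45949342, plus strand). Psmc4 had 1685 in WT (chr7:28835270-28835329) and 198 in CM (chr7:28835303-28835362, both minus strand), and its summit in CM lay 33 bases farther from the gene. Psmd1 (chr1:87960872-87960931, plus strand) had 707, Psmb5 (chr14:55236146-55236205, minus strand) 458, Psmd7 (chr8:110112379-110112438, minus strand) 440 and Psmd11 (chr11:80241965-80242024, plus strand) 420.
Psmd6, WT CTCF: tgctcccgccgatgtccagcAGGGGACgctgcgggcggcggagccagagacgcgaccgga
Psmc6, WT CTCF: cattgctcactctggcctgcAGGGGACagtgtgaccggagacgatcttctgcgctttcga
Psmc4, WT CTCF: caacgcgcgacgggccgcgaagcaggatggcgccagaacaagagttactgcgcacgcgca
Psmc4, CM CTCF: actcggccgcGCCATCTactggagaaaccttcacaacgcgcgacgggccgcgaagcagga
Psmd1, WT CTCF: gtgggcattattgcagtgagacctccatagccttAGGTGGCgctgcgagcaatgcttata
Psmb5, WT CTCF: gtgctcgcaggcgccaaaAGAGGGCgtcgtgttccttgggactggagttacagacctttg
Psmd7, WT CTCF: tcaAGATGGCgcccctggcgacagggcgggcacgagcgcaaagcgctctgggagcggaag
Psmd11, WT CTCF: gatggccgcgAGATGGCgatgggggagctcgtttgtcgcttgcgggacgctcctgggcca

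Over all 34625 CTCF peaks in WT, AGNNGGC stood in 53.1% of these windows and in 12.5% of windows 500 bases away, and AGGGGNC in 16.3% and 3.33%. Of the 14 member peaks, 5 held the first, 5 the second and 9 either. All 5 peaks listed in CM held either of them. Heights in CM were 862 for Psmd6, 500 for Psmc6, 661 for Psmd1 and 116 for Psmb5, and BORIS heights were 265 for Psmd6, 187 for Psmd1 and 86 for Psmc4. How heights were scaled is not given in the sources used here, and they are not compared between lists.

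RNA polymerase II peaks were listed within 1 kb at 34 members in WT (77.3%, against 40.0% of coding genes) and at 39 in CM (88.6%, against 47.5%), and peaks of H3K4me3, a mark of active promoters, at 40 (90.9%, against 53.3%) and 42 (95.5%, against 58.2%). Polymerase peaks of Psma7, Psmb3, Psmb10, Psmd1 and Psme2 were listed in CM and not in WT, and none the other way round. The H3K4me3 peaks of Psme1 (mm9 chr14:56196804-56198023) and Psmb9 (chr17:34323707-34325081) were also listed in CM and not in WT. For each genotype the deposit labels 1 H3K4me3 library and 2 polymerase libraries and gives 1 list per mark, so these lists carry no replicate error. Peaks listed in CM only thus stood at 11.4% of members for the polymerase, against 8.85% of coding genes, and at 4.55% for H3K4me3, against 7.53%. The Psme1 peak was not among the upper 50% of H3K4me3 scores. Psmb8 had neither kind of peak in either genotype. Psmb11 had none of them.

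**Figure D5:**
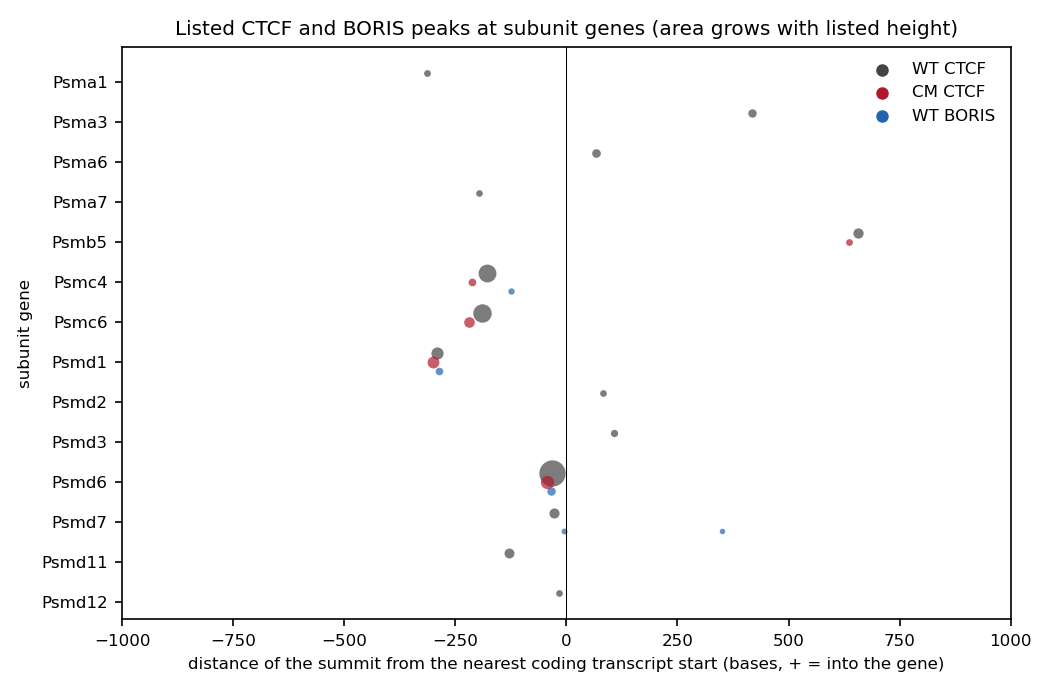
Each circle is a listed CTCF or BORIS peak summit, placed on the horizontal axis by its distance in bases from the nearest coding transcript start of the subunit gene, which the vertical axis names, and its area grows with the listed height. The tallest peaks, at Psmd6, Psmc6 and Psmc4, lie within 250 bases of the start, and red points for CM are seen at 5 genes.

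Promoters of 37 members could be matched to RefSeq. TGACNNNGC, the antioxidant response element through which Nfe2l1 and Nfe2l2 act on subunit genes, stood in 6 of them on either strand (16.2%, against 14% of all promoters). GGGCGG, the GC box, stood in 22 (59.5%, against 38.2%) and CCAAT in 14 (37.8%, against 41.1%). GAAANNGAA stood in 6 (16.2%, against 9.76%), of which Psme1 was the only PA28 or immunoproteasome gene, and TTCNNNGAA in 2, Psmb8 and Psmd2 (5.41%, against 9.55%). These last letters were added once expression values were known, and the limit on the Psmb10 window given above applies to them.

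Of 26 other genes of the pathway (assembly factors, ubiquitin genes, shuttles, regulatory particle partners and regulators of subunit genes), 2 were called higher in CM against WT in whole testis (16.4% of all genes) and 2 lower (8.8% of all genes). Nfe2l2, a regulator of antioxidant genes (log2 fold change 1.66 ± 0.34 (SE), edgeR adjusted p = 0.017), and the shuttle Ubqln2 (log2 fold change 1.40 ± 0.40 (SE), edgeR adjusted p = 0.0353) were higher, and the shuttle Rad23b (log2 fold change -1.02 ± 0.23 (SE), edgeR adjusted p = 0.0201) was lower. In CM against CTCF HET, Nfe2l2 and Ubqln2 were higher, and none of the 26 was called in the other whole testis comparisons. In WT round spermatids against spermatocytes, 9 were higher and 12 lower, against 35.8% and 34.2% of all genes. Nfe2l2 (log2 fold change 5.33 ± 0.27 (SE), edgeR adjusted p = 2.19e-06), the ubiquitin-activating enzyme Uba1 (log2 fold change 4.61 ± 0.25 (SE), edgeR adjusted p = 3.47e-06) and the shuttle Ubqln1 (log2 fold change 1.02 ± 0.10 (SE), edgeR adjusted p = 8.47e-05) led the higher ones, and Rps27a, a ubiquitin fusion gene (log2 fold change -2.31 ± 0.12 (SE), edgeR adjusted p = 2.82e-06), Pomp, the maturation factor of the core (log2 fold change -1.84 ± 0.14 (SE), edgeR adjusted p = 1.93e-05), and the unfoldase Vcp (log2 fold change -0.98 ± 0.09 (SE), edgeR adjusted p = 4.61e-05) the lower ones. Of the 5 assembly factors of the core, 3 were lower and none higher.

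In purified mutants the same list had calls in both directions. In BORIS KO round spermatids 9 of 26 were higher (26.8% of all genes), among them Ubb (1.53 ± 0.10) and Rps27a (0.94 ± 0.13), and 9 lower (29% of all genes), led by Rad23b (-1.63 ± 0.07), the deubiquitinase Uchl5 (-1.71 ± 0.11) and AI314180, the gene of the proteasome scaffold Ecm29 (-1.19 ± 0.09). In BORIS KO spermatocytes 12 were higher (29.1% of all genes), among them Ubb (0.88 ± 0.09) and the ubiquitin receptor Adrm1 (0.64 ± 0.07), and 8 lower (28.1% of all genes), led by Rad23b (-1.06 ± 0.08), the deubiquitinase Usp14 (-0.76 ± 0.07) and Uchl5 (-0.80 ± 0.07). In CTCF HET round spermatids 1 of 25 was higher (9.51% of all genes), Rps27a (0.58 ± 0.14), and 3 were lower (12.8% of all genes), among them Nfe2l2 (-0.89 ± 0.19) and Uchl5 (-0.65 ± 0.16). In spermatocytes labelled CTCF HET 2 of 25 were higher (6.77% of all genes), Ubqln1 (0.60 ± 0.09) and Uchl5 (0.85 ± 0.15), and 4 lower (8.76% of all genes), led by Adrm1 (-1.20 ± 0.18), Ubqln4 (-0.90 ± 0.14) and Ubb (-0.69 ± 0.14). Values are log2 fold changes ± SE of genes called by edgeR, and none was called in cells labelled CM.

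Levels of subunits of 1 complex were far from equal. Per kb of transcript, the ATPase Psmc3 was the highest member in WT spermatocytes (mean 502 CPM per kb), round spermatids (473) and whole testis (499). Psma8 (275) and Psmd8 (248) followed it in spermatocytes, Psmc2 (246) and Psme4 (210) in round spermatids, and Psma6 (344) and Psmc2 (209) in whole testis. Psma6 in whole testis varied over the libraries more than most members, at 202, 371 and 502 CPM in WT and 24.6, 327 and 368 CPM in CM, where library 1 was the lowest of each group. Psmb8, Psmb9, Psmb10, Psmb11, Psme1 and Psme2 were the 6 lowest members per kb in WT round spermatids. They were also among the lowest in the other WT preparations, where Psmd10 (0.147 CPM per kb in spermatocytes) lay below Psme1 and Psmb10, and Psma2 (4.77 CPM per kb in whole testis) below Psme2. Psmb11 did not exceed 0.912 CPM in whole testis or 0.124 CPM in purified cells, and Psmb9 was at 0 in all 12 round spermatid libraries.

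None of the 3 constitutive catalytic subunits was called in whole testis by edgeR without the replicate block. With the block, Psmb5 was called higher in CM against WT and in CM against BORIS KO. Psmb6 was at 139.5, 114 and 115 CPM in WT and 83.2, 121 and 132 CPM in CM whole testis, and Psmb7 at 92.9, 96.7 and 89.3 CPM and 58.6, 102 and 87.0 CPM. For Psmb6, CM library 1 was below all WT libraries and the other libraries lay within the WT range. For Psmb7, CM libraries 1 and 3 were below all WT libraries and library 2 was above them. Psmb5 was at 48.6, 30.7 and 29.9 CPM in WT and 53.5, 57.5 and 60.2 CPM in CM, where all CM libraries were the higher (log2 fold change 0.62 ± 0.24 (SE), edgeR adjusted p = 0.0844). In WT spermatocytes Psmb6 was at 107 and 122 CPM and Psmb7 at 80.8 and 86.4 CPM, and in WT round spermatids at 116, 97.9 and 93.1 CPM and 82.9, 81.2 and 84.6 CPM. Psme3 in the round spermatids labelled CM was at 52.0, 113 and 69.7 CPM, with library 2 again the highest, and at 35.1, 34.9 and 43.4 CPM in BORIS KO (log2 fold change -0.62 ± 0.12 (SE), edgeR adjusted p = 0.00185).

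In the single mutants of whole testis, edgeR called no member without the replicate block, and with it the 3 in BORIS KO given above. Levels of the other activators, the inhibitor and the germ cell alpha subunits follow. Psmf1 was at 412-569 CPM in BORIS KO, against 502-654 CPM in WT, and Psme3 at 113-138 CPM in CTCF HET and 113-148 CPM in BORIS KO, against 123-180.1 CPM in WT. Psme2 was at 2.07-8.07 and 3.74-9.36 CPM, Psmb8 at 0.304-0.889 and 0.741-1.27 CPM and Psmb10 at 2.82-3.73 CPM in BORIS KO. Psma8 was at 30.0-59.1 CPM in CTCF HET and 36.5-44.2 CPM in BORIS KO, and Psma7 at 6.09-13.9 and 6.64-23.3 CPM.

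In purified mutants, Psma8 was at 367-464 CPM in spermatocytes labelled CTCF HET and 454-702 CPM in those labelled CM, against 448-482 CPM in WT. In round spermatids it was at 56.1-76.2 CPM for CTCF HET and 36.0-63.5 CPM for the CM label, against 52.0-70.0 CPM in WT. Neither genotype had a call for Psma8 in either cell type. Psme4 was at 809-1069.7, 575-641 and 822-924 CPM in spermatocytes of CTCF HET, BORIS KO and CM by label, against 903-949.9 CPM in WT, and at 1043-1462 CPM for CTCF HET and 612-1426 CPM for the CM label in round spermatids. Psmb5 was at 2.00-5.17 and 5.10-6.04 CPM in spermatocytes labelled CTCF HET and CM, and at 3.87-6.65 and 0.713-3.50 CPM in round spermatids. Of these genes, Psme4 and Psmb5 were not called against WT in cells labelled CTCF HET or CM either.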

How the data were processed

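Libraries were grouped by the genotype and cell type in the deposited labels. The deposited gene counts, made by the authors from reads aligned to mm9, were used as they are. The submitters' processing notes name TopHat2, Bowtie2, STAR, Bowtie, DESeq2 and Cufflinks 2.0.0, and the counting program, its strand setting and its annotation are not given in the sources used here. The deposited ChIP peak lists give a peak height (signal) for CTCF and BORIS, from MACS and PeakSplitter, and a peak score for RNA polymerase II and H3K4me3.

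The members, gene lists and comparisons were chosen with earlier results of these data known. Each pair of groups was fitted in edgeR 4.0.16 (R 4.3.3) after filterByExpr (minimum count 10, minimum total 15) and TMM scaling, with robust quasi-likelihood tests and Benjamini-Hochberg adjustment over all genes tested. SE is the log2 fold change divided by the square root of F. DESeq2 1.42.0 was an alternative, as were RLE scaling, no filter, all groups of a preparation in 1 fit, a replicate block, stricter thresholds and leaving out libraries. A GC offset, the fits without libraries numbered 1, and the tests of CTCF HET and BORIS KO effects between cell types were added after the data were seen. The steps were tested on simulated counts with known changes of 1 or 2 on the log2 scale, in 100 genes of each size. Only genes above a low level were changed, so members near the floor are not covered. Far fewer genes changed than were called in CM against WT whole testis (16.4% higher and 8.8% lower). The shares recovered therefore describe the simulated setting and are not the power in these data. In CM against WT whole testis, edgeR recovered 7% of changes of 1 and 83% of changes of 2. It recovered 2% and 41% for the CM difference between cell types. For BORIS KO round spermatids it recovered 91% and 99%, and between WT stages 83% and 100%. Absence of a call in these CM comparisons therefore does not show absence of change. The study's methods give n as independent experiments and 4 mice per germ cell preparation but do not tie each purified library to its own mice, so p-values measure the spread between these libraries. In whole testis all 18 pairs of libraries with the same number deviated together (correlation of deviations 0.12 to 0.63), and in purified cells 4 of 18 and 1 of 15 pairs exceeded 0.1. Named genes were up to 6 called members in each direction per comparison by smallest p, with Psma7, Psma8, Psmb5 to Psmb11, Psme1 to Psme4 and Psmf1 throughout, and up to 3 pathway genes in each direction, of which some are counted but not reported here by name. Psma2, Psmb1, Psmb2 and others named for a group count or a peak were chosen after their values were seen. Copies were sought with blastn 2.17.0 (identity of 95% or more over 100 bases or more). Precision rests on the depth and on 2 or 3 libraries per group.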

Additional observations from a re-analysis of the deposited data

Results flagged for a closer look

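Changes that differed between round spermatids and spermatocytes, by a test of the difference itself, are listed here as log2 differences (round spermatids minus spermatocytes) with edgeR adjusted p below 0.05. For BORIS KO they were -0.98 for Psma3, -0.68 for Psma4, -0.71 for Psmc6, -0.47 for Psmd12, -1.62 for Psmd10, -0.47 for Psma6, -0.37 for Psmd14 and -0.31 for Psmd2. Psma3 fell in both cell types and fell further in round spermatids, where it was at 44.0, 42.7 and 43.7 CPM against 134, 154 and 168 CPM in WT. For the CM label they were -3.56 for Psmd10 and -1.07 for Psma6.

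Directions for the CTCF HET label are relative to the positive shift over all genes given above, to which Psmf1, Psmd1 and Psmc5 lay closest. For the CTCF HET label the positive differences were 1.10 for Psmd8, 1.36 for Psmd11, 1.83 for Psmd3, 1.30 for Psmb2, 1.42 for Psmd4, 0.48 for Psmd1, 0.55 for Psmc5, 0.47 for Psmf1 and 1.67 for Psmb5. The negative ones were -1.51 for Psma3, -0.64 for Psma6, -0.79 for Psmd7, -3.92 for Psmd10, -0.57 for Psmc6, -0.39 for Psmd12 and -0.39 for Psmd6. Their split of 9 and 7 became 5 and 11 under RLE scaling and 2 and 13 with the GC offset, and the Ctcf level of the spermatocyte libraries with this label went against it.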

How the results depend on the processing

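Counts are members called by edgeR unless another tool is named, and the cause of each change was not tested. Shares of all genes called under the same alternatives are not reported here, so these counts of calls do not set the members against other genes. DESeq2 called 1 in BORIS KO whole testis, 4 in CM against BORIS KO, 4 in round spermatids and 7 in spermatocytes labelled CM. Adjusted p below 0.001 with a fold change over 2 left 0 in CM against WT, 0 in CM against CTCF HET, 0 in each CTCF HET comparison of purified cells, 5 and 1 in BORIS KO round spermatids and spermatocytes and 8 between WT stages. One fit of all groups gave 2 in CM against BORIS KO, 9 in CM against CTCF HET, 0 and 18 in CTCF HET and BORIS KO round spermatids, 5 in those labelled CM, and 9 and 6 in spermatocytes of BORIS KO and of the CM label. The replicate block in whole testis gave 3 in BORIS KO, 12 in CM against WT, 5 in CM against BORIS KO and 10 in CM against CTCF HET, and with the GC offset 7, 11, 7 and 14. In purified cells, where numbers do not pair the libraries, the block gave 4 in CTCF HET round spermatids and 1 for the CM difference between cell types. It changed no other count by over 1.5 times. Without the libraries numbered 1, whole testis gave 3 in BORIS KO, 14 in CM against WT, 5 in CM against BORIS KO and 10 in CM against CTCF HET. No filter gave 6 in spermatocytes labelled CTCF HET. The GC offset gave 6 there, 1 and 3 for the CM and BORIS KO differences between cell types, and turned Psmc6 to 0.37 in BORIS KO round spermatids and to -0.067 in spermatocytes labelled CTCF HET. CTCF peaks in the upper 50% of heights stood at 4 members in WT (9.09%, against 11.5% of coding genes) and 3 in CM (6.82%, against 4.72%). Reading the gene strand only left TGACNNNGC in 3 member promoters (8.11%, against 7.29% of all promoters) and GGGCGG in 14 (37.8%, against 25.6%).

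With 1 library left out, counts ranged over 0-12 in CM against WT, 0-2 in CM against BORIS KO, 0-7 in CM against CTCF HET, 26-32 for BORIS KO, 1-15 for CTCF HET and 0-3 for the CM label in round spermatids, 22-28, 0-8 and 0-13 in spermatocytes in the same order, 21-32 between WT stages, and 0-2, 9-18 and 0-21 for the CM, CTCF HET and BORIS KO differences between cell types. They stayed at 0 for the interaction and for both single mutants in whole testis. Of 814 values of single members under alternatives, 657 kept their side of the threshold, 155 lost the call and 2 reversed.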
